A study of Homo sapiens with 15 samples.

Results

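Solute carrier (SLC) genes code for membrane proteins that move a defined substrate, such as a sugar, an amino acid, a vitamin or an ion, across the plasma membrane or the membrane of an organelle. The well expressed ones were followed here in H1975, an established human lung adenocarcinoma cell line, over 10 times after epidermal growth factor (EGF). They were chosen by their level on these same arrays: probe sets with a symbol of SLC or SLCO and a number were taken, with 1 probe set per symbol, and a gene was kept when its mean over the 15 arrays was 1.0 or more. This kept 12 of 37 such symbols, among 14675 named genes in all. The 12 are SLC49A4, SLC71A2, SLC71A1, SLC35F6, SLC66A3, SLC38A12, SLC61A1, SLC75A1, SLC9D1, SLC33A2, SLC2A4RG and SLC60A2, and each was measured by 1 probe set.

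Cells were starved of serum overnight and then received 50 ng/ml EGF. Single arrays stood for 1, 2, 4, 6, 8, 12 and 18 h, while 0.5 h had 2 arrays, 24 h had 3 and 48 h had 3. All arrays carried EGF, so time after EGF and time without serum cannot be told apart, and unstimulated cells were not analysed here. The line is a single tumour line, and nothing in the labels says that the arrays of a time came from separate cultures, so the p-values measure only the spread between these arrays.

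The unit is the SCAN score, which the authors obtained by correcting each array on its own for probe base composition on a log scale and standardising it. A score of 1.0 lies well above the array medians, which ranged from 0.0644 to 0.0789, and single scores reached from -0.983 to 4.41. Differences are given in SCAN units, later time minus earlier time, and not as fold changes. The median standard deviation (SD) between replicates over all genes was 0.0253 at 0.5 h, 0.0312 at 24 h and 0.0314 at 48 h. Of 10 epithelial markers 9 were named on the array, with medians from 0.824 to 2.89, whereas the named markers of blood (2 of 6), fibroblasts (2 of 6) and endothelium (2 of 5) had medians between -0.096 and 0.088.

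Carriers are classed by what they move. The families best known in growing cells, such as the glucose carriers of family SLC2, the amino acid exchangers of SLC7 and the lactate carriers of SLC16, supply fuel and building blocks and set the acidity of the cell. Most of these genes were not named in the annotation used here, in which 23 of 398 protein-coding SLC symbols of the reference occurred, and nothing is said of them. The 12 genes are mostly carriers that were named after their sequence: 6 of them belong to the major facilitator proteins formerly called MFSD, a fold of membrane helices that alternately opens to either side. A last member, SLC2A4RG, is not a carrier at all but a DNA-binding protein named as a regulator of the glucose carrier gene SLC2A4.

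The threshold itself gives no result. Just inside it lay SLC60A2 with a mean of 1.00 and SLC2A4RG with 1.04, and just outside it SLC66A1 with 0.93 and SLC35D4 and SLC60A1 with 0.89 each. The mean over all arrays leaves out genes that were low for most of the course: SLC60A1 had a 48 h mean of 1.30 but a mean of 0.65 at 0.5 h.

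At 48 h 5 of the 12 genes were called higher than at 0.5 h and 0 lower, at an adjusted p under 0.05 over all 14675 genes (limma, Benjamini-Hochberg). These were SLC9D1, SLC49A4, SLC75A1, SLC66A3 and SLC61A1, with differences between 0.099 and 0.25 SCAN units. Of all genes 28.6% were called in this comparison (15.5% higher, 13.1% lower), and of the 4416 genes with a mean of 1.0 or more 48.9% were (27.8% higher, 21.1% lower). The share of the 12 genes was 41.7%, close to that of other genes at such levels. The median difference over the 12 was 0.068, against 0.0013 over all genes and 0.016 over the genes at 1.0 or more.

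**Figure D1:**
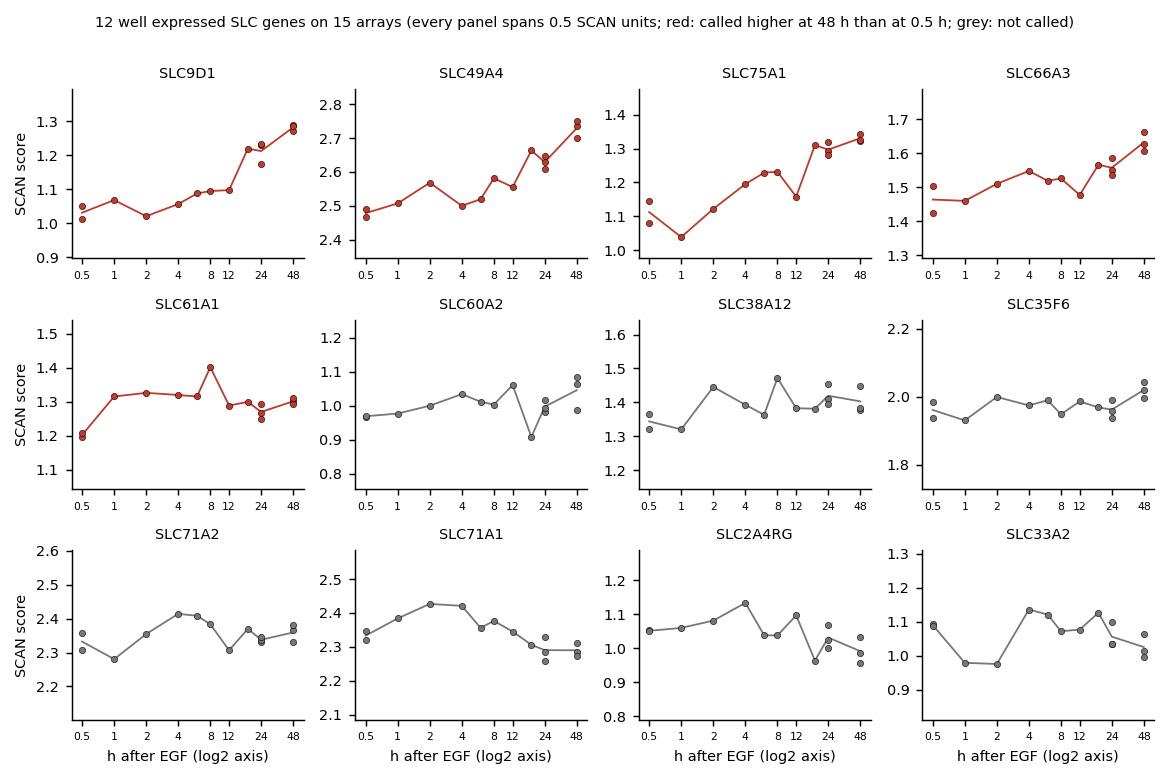
SCAN score (vertical axis, each panel spanning 0.5 units) against hours after EGF (log2 axis) for the 12 genes, ordered by the 48 h minus 0.5 h difference; points are single arrays and lines join the means of each time. SLC9D1, SLC49A4, SLC75A1, SLC66A3, SLC61A1, SLC60A2 and SLC38A12 have every 24 h and 48 h array above both 0.5 h arrays. By its time means SLC71A1 lies highest at 2 h and lowest at 48 h.

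SLC49A4, formerly DIRC2, is a protein of the lysosomal membrane that has been linked to the release of pyridoxine, a form of vitamin B, from lysosomes. It scored 2.47 and 2.49 at 0.5 h, 2.51 at 1 h, 2.57 at 2 h, 2.50 at 4 h, 2.52 at 6 h, 2.58 at 8 h, 2.56 at 12 h and 2.66 at 18 h. The arrays read 2.63, 2.61 and 2.65 at 24 h and 2.74, 2.70 and 2.75 at 48 h. Every array from 18 h on was above every earlier one, and the 48 h arrays were above those of 24 h. The difference was 0.25 ± 0.030 (SE; 95% confidence interval 0.19 to 0.31; adjusted p = 3.7e-06) for 48 h against 0.5 h and 0.15 ± 0.030 (adjusted p = 0.0017) for 24 h against 0.5 h. SLC49A4 was also the only one of the 12 called for 48 h against 24 h, by 0.10 ± 0.027 (adjusted p = 0.0177). That last call ended without 24 h replicate 1 or 2 or 48 h replicate 1 or 3, with adjusted p from 0.052 to 0.0763.

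SLC9D1, formerly TMCO3, is predicted from its sequence to exchange sodium for protons, the reaction by which the better known SLC9 exchangers regulate acidity. Its scores were 1.01 and 1.05 at 0.5 h, 1.07 at 1 h, 1.02 at 2 h, 1.06 at 4 h, 1.09 at 6 h, 1.09 at 8 h, 1.10 at 12 h and 1.22 at 18 h. They were 1.17, 1.23 and 1.23 at 24 h and 1.29, 1.27 and 1.29 at 48 h. Up to 12 h no array passed 1.10, and from 18 h on none was under 1.17. The difference was 0.25 ± 0.031 (95% confidence interval 0.19 to 0.32; adjusted p = 4.6e-06) for 48 h against 0.5 h and 0.18 ± 0.031 (adjusted p = 0.0004) for 24 h against 0.5 h. Among all genes it ranked 380th from the highest at 48 h against 0.5 h. The further 0.070 of 48 h against 24 h was not called (adjusted p = 0.116; adjusted p = 0.0465 after quantile normalisation), although the arrays of these times did not overlap.

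SLC75A1, formerly MFSD10 or TETRAN, resembles bacterial tetracycline pumps and has been linked to the transport of organic anions. The 0.5 h arrays read 1.08 and 1.14, and later ones 1.04 at 1 h, 1.12 at 2 h, 1.195 at 4 h, 1.23 at 6 h, 1.23 at 8 h, 1.16 at 12 h and 1.31 at 18 h. Those of 24 h read 1.29, 1.28 and 1.32, and those of 48 h 1.34, 1.32 and 1.33. The arrays thus fell into 3 steps without overlap, the lowest up to 2 h, the next from 4 to 12 h and the highest from 18 h on. The first step was narrow, from 1.145 on 0.5 h replicate 3 to 1.158 at 12 h, with an SD of 0.045 at 0.5 h. In SLC60A2 the arrays up to 2 h and those from 4 to 12 h did not overlap either. The share of all genes with such steps was not counted. Its range over the time means, 0.29, was the widest of the 12 genes. The difference was 0.22 ± 0.031 (95% confidence interval 0.15 to 0.28; adjusted p = 2.4e-05) for 48 h against 0.5 h and 0.18 ± 0.031 (adjusted p = 0.00034) for 24 h against 0.5 h, while 48 h against 24 h differed by 0.034 (adjusted p = 0.520).

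SLC66A3, formerly PQLC3, belongs to the PQ-loop proteins, a small family whose better known members export amino acids from lysosomes. It scored 1.42 and 1.50 at 0.5 h, 1.46 at 1 h, 1.51 at 2 h, 1.55 at 4 h, 1.52 at 6 h, 1.53 at 8 h, 1.48 at 12 h and 1.57 at 18 h. The 24 h arrays read 1.55, 1.59 and 1.54 and the 48 h arrays 1.63, 1.66 and 1.61. The 48 h arrays were above all others. SLC66A3 differed by 0.17 ± 0.033 (95% confidence interval 0.099 to 0.24; adjusted p = 0.00071) for 48 h against 0.5 h. Neither 24 h against 0.5 h (0.094, adjusted p = 0.0605) nor 48 h against 24 h (0.075, adjusted p = 0.118) was called.

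SLC61A1, formerly MFSD5, is the carrier of molybdate, the oxyanion from which the molybdenum cofactor of several oxidases is built. It read 1.197 and 1.207 at 0.5 h, 1.32 at 1 h, 1.33 at 2 h, 1.32 at 4 h, 1.32 at 6 h, 1.40 at 8 h, 1.29 at 12 h and 1.30 at 18 h. At 24 h the arrays read 1.27, 1.25 and 1.29, and at 48 h 1.30, 1.29 and 1.31. The 0.5 h arrays were the lowest of the 15, and the highest was that of 8 h. The difference of 48 h against 0.5 h was 0.099 ± 0.029 (95% confidence interval 0.038 to 0.16; adjusted p = 0.0150). It rested on both 0.5 h arrays, since the adjusted p was 0.0921 without 0.5 h replicate 1 and 0.0614 without 0.5 h replicate 3.

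The sequence upstream of the transcription start was taken from RefSeq (GRCh38.p14) for 10 of the 12 genes, as the 250 bases before the start, which gave 11 windows because SLC75A1 has 2 annotated starts. It was searched on both strands for GGGCGG, the GC box bound by factors of the Sp family, which is common in promoters rich in G and C. The box was found in 9 of the 10 genes (for SLC75A1 in 1 of its 2 windows) and in 42.6% of all 35116 windows of that length. The 11 windows held between 58.0% and 86.8% G and C, against a median of 58.0% over all windows. The windows of the 4 genes with the highest 48 h minus 0.5 h differences are shown, since these are the members that stood higher late in the course, with GC boxes of either strand in capitals and the transcription start right after the last base. SLC49A4 lies on the plus strand (chr3:122794819-122795068), SLC9D1 on the plus strand (chr13:113490771-113491020), SLC75A1 on the minus strand (chr4:2934826-2935075, the upstream one of its starts) and SLC66A3 on the plus strand (chr2:11155217-11155466).
SLC49A4: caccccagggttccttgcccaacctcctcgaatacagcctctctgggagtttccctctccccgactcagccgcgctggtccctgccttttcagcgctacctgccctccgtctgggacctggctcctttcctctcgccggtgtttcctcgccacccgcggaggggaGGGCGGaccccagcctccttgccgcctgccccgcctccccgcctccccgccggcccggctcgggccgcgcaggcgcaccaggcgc
SLC9D1: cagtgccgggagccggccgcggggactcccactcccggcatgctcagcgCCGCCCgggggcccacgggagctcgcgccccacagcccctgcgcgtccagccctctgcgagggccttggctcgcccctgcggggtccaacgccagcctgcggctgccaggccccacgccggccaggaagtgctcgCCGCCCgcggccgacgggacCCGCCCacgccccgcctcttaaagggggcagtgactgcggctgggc
SLC75A1: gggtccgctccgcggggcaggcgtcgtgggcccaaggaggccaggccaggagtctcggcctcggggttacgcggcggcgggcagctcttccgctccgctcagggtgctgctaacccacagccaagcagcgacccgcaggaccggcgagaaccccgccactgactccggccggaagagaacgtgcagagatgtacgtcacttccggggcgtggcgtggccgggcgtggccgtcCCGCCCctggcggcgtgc
SLC66A3: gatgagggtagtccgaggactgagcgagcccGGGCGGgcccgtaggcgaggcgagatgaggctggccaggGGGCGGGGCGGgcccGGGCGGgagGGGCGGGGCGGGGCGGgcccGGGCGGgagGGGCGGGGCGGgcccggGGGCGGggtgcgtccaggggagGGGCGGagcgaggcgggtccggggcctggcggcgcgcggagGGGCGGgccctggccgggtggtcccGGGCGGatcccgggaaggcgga

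The number of GC boxes differed widely between these windows. SLC66A3 had 14, counting overlaps, a number that 0.0256% of all windows reach, whereas SLC9D1 had 3 (13.9% of windows have as many) and SLC49A4 and the window shown for SLC75A1 had 1 each. The other SLC75A1 window had 0. High counts were not limited to the genes that were higher at 48 h, since SLC2A4RG had 10 boxes (0.151% of windows have as many). The CCAAT box was present in SLC2A4RG, SLC38A12 and SLC61A1, that is in 3 of 10 genes against 32.0% of all windows. The E-box CACGTG, read by MYC and by the lysosomal regulator TFEB, was present only in SLC60A2, 29 bases before the start, against 6.34% of all windows. None of the 11 windows held the ATF4 site TGATGNAA (3.14% of all windows), the cAMP response element TGACGTCA (1.65%), the AP-1 site TGANTCA (6.57%) or the FOXO site GTAAACA (2.98%).

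The remaining 7 genes were not called for 48 h against 0.5 h, and their intervals show which differences remain possible. SLC60A2, formerly MFSD4B, is known from rat kidney as a sodium-dependent glucose carrier. It scored 1.08, 1.06 and 0.99 at 48 h and 0.97 and 0.97 at 0.5 h, with its lowest array, 0.91, at 18 h. The 48 h arrays lay above those of 0.5 h, by 0.077 (95% confidence interval 0.0078 to 0.15; adjusted p = 0.0928), and the difference was called without 48 h replicate 3 (adjusted p = 0.0234). SLC2A4RG was the other gene of this list tied by name to glucose, and it scored 0.99, 0.96 and 1.03 at 48 h and 1.05 on both arrays of 0.5 h. Its difference of -0.060 was not called (95% confidence interval -0.13 to 0.0080; adjusted p = 0.189).

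SLC35F6 belongs by its name to the family of nucleotide sugar carriers, which feed glycosylation in the Golgi apparatus, and SLC33A2, formerly MFSD3, is a relative of the acetyl-CoA carrier SLC33A1. SLC35F6 scored 2.04, 2.00 and 2.02 at 48 h and 1.94 and 1.99 at 0.5 h. All 15 arrays lay between 1.93 and 2.04, the narrowest range of time means among the 12 genes (0.090), and the difference of 0.059 was not called (95% confidence interval -0.0067 to 0.12; adjusted p = 0.181). SLC33A2 scored 1.01, 1.06 and 1.00 at 48 h and 1.09 and 1.09 at 0.5 h, a difference of -0.065 (95% confidence interval -0.13 to 0.0032; adjusted p = 0.154). Its lowest arrays were those of 1 h and 2 h, both at 0.98, and its highest that of 4 h at 1.14.

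SLC38A12, formerly TMEM104, was placed by its name with the sodium-coupled amino acid carriers. It scored 1.45, 1.38 and 1.38 at 48 h, against 1.32 and 1.37 at 0.5 h, and its highest array was that of 8 h at 1.47. The difference was 0.059 (95% confidence interval -0.010 to 0.13; adjusted p = 0.205), and that of 24 h against 0.5 h was 0.076 (adjusted p = 0.131).

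SLC71A1 and SLC71A2, formerly MFSD14A and MFSD14B, are closely related major facilitator proteins without an agreed substrate, and in the mouse the first is needed for sperm head formation. SLC71A1 read 2.32 and 2.35 at 0.5 h, 2.38 at 1 h, 2.43 at 2 h, 2.42 at 4 h, 2.36 at 6 h, 2.38 at 8 h, 2.35 at 12 h and 2.31 at 18 h, then 2.26, 2.33 and 2.28 at 24 h and 2.28, 2.27 and 2.31 at 48 h. Its scores were highest at 2 h and 4 h. For 48 h against 0.5 h the difference was -0.043 (95% confidence interval -0.11 to 0.022; adjusted p = 0.343), a value that was called after quantile normalisation between the arrays (-0.082, adjusted p = 0.0470). SLC71A2 read 2.37, 2.33 and 2.38 at 48 h and 2.36 and 2.31 at 0.5 h. It was the only gene of the 12 whose arrays overlapped between these times, and its difference was 0.027 (95% confidence interval -0.037 to 0.091; adjusted p = 0.575).

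The arrays of 48 h and 0.5 h thus did not overlap in 11 of the 12 genes, with 8 higher and 3 lower at 48 h. The same holds for 50.9% of all genes (26.6% higher). Without overlap between 24 h and 0.5 h were 7 genes, all of them higher at 24 h, against 43.8% of all genes (23.8% higher). Between 48 h and 24 h it was 5 genes, all higher at 48 h, against 28.0% of all genes (13.7% higher). These shares were not counted for the genes at 1.0 or more alone. Of those, more were called for 48 h against 0.5 h than of all genes (48.9% against 28.6%).

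**Figure D2:**
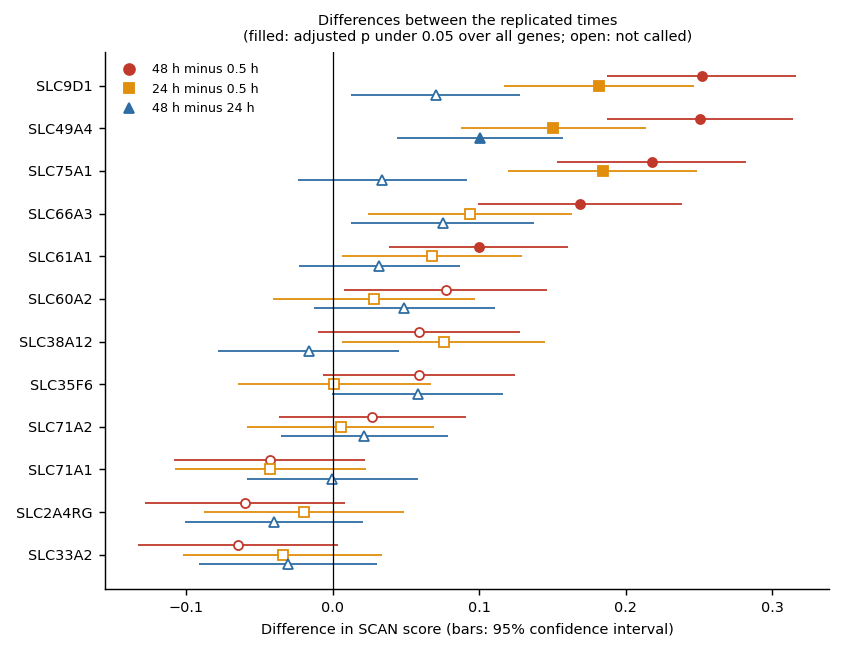
Difference in SCAN score (horizontal axis, SCAN units) of 48 h minus 0.5 h, 24 h minus 0.5 h and 48 h minus 24 h for each of the 12 genes; bars are 95% confidence intervals and filled symbols are calls at an adjusted p under 0.05 over all genes. SLC9D1, SLC49A4 and SLC75A1 carry filled symbols for both comparisons with 0.5 h, and SLC49A4 alone for 48 h minus 24 h.

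The comparison of 24 h with 0.5 h asks how much of this was present after the first day. It uses the same 0.5 h arrays as the one above and the 24 h arrays that 48 h was also set against, so the 3 sets of differences are not independent. SLC75A1, SLC9D1 and SLC49A4 were higher at 24 h, 3 of 12 genes with 0 lower, where 17.2% of all genes were called (9.96% higher, 7.26% lower) and 31.2% of those at 1.0 or more (18.6% higher, 12.6% lower). The median difference of the 12 was 0.048, against 0.0030 over all genes and 0.013 over those at 1.0 or more. SLC66A3 came nearest among the genes not called, and it was called without 0.5 h replicate 3 (adjusted p = 0.0377), with genes under a mean of 0.2 left out (adjusted p = 0.0333) and with a trended and robust variance (adjusted p = 0.0332).

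From 24 h to 48 h the mean was higher in 8 of the 12 genes and lower in 4. Only SLC49A4 was called, 1 of 12, where 12.9% of all genes were (6.19% higher, 6.68% lower), and 24.3% of those at 1.0 or more (12.1% higher, 12.2% lower). The median difference of the 12 was 0.033, against -0.00058 over all genes and 0.0025 over those at 1.0 or more. Apart from SLC49A4 the largest differences were those of SLC66A3 (0.075), SLC9D1 (0.070) and SLC35F6 (0.058, adjusted p = 0.218).

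Because most times had 1 array, neighbouring times were also pooled into an early (0.5 to 2 h, 4 arrays), a middle (4 to 12 h, 4 arrays) and a late window (18 to 48 h, 7 arrays). Arrays of the same time were counted as independent in this fit, so its errors and p-values can be too small. Change within a window also counts as spread in this fit, which can make its errors and p-values too large. SLC75A1 was the only one of the 12 called for 4 to 12 h against 0.5 to 2 h, at 1.203 against 1.10, a difference of 0.11 ± 0.026 (adjusted p = 0.0423). In this comparison 1.58% of all genes were called (0.94% higher, 0.641% lower), and 2.79% of those at 1.0 or more (1.65% higher, 1.13% lower). The call ended without any 1 of 10 arrays (0.5 h replicate 1, 1 h, 4 h, 6 h, 8 h, 18 h, 24 h replicates 1 and 3, 48 h replicates 2 and 3), with adjusted p between 0.0509 and 0.153. It also ended in 4 further settings, with adjusted p from 0.0556 (trended and robust variance) to 0.672 (4 h counted as early and 12 h as late). SLC61A1, at 1.33 in the middle and 1.26 in the early window, was not called (difference 0.070, adjusted p = 0.342), and neither was SLC33A2 (difference 0.068, adjusted p = 0.401).

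For 18 to 48 h against 4 to 12 h, 3 genes were higher and 2 lower, where 19.1% of all genes were called (8.95% higher, 10.2% lower), and 36.6% of those at 1.0 or more (16.3% higher, 20.3% lower). SLC9D1 averaged 1.24 from 18 h on and 1.08 at 4 to 12 h, which is 0.16 ± 0.023 (adjusted p = 0.00011). SLC49A4 averaged 2.68 late and 2.54 before (0.14 ± 0.029, adjusted p = 0.0021), and SLC75A1 averaged 1.31 late and 1.203 before (0.11 ± 0.023, adjusted p = 0.0021). In all 3 genes the late and middle arrays did not overlap, and the same held for SLC71A1, which was lower late. The share of all genes without overlap was not counted for these windows. With other window limits, 4 h counted as early and 12 h as late, SLC9D1 was still called (0.13, adjusted p = 0.0468), while the calls of SLC49A4 (0.11, adjusted p = 0.121) and SLC75A1 (0.064, adjusted p = 0.428) ended. SLC66A3, at 1.59 late and 1.52 before, was not called (0.073, adjusted p = 0.0548), but was without 24 h replicate 1 (adjusted p = 0.0426) or 24 h replicate 3 (adjusted p = 0.0314), after quantile normalisation (adjusted p = 0.0120) and with genes under a mean of 0.2 left out (adjusted p = 0.0403).

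The genes that were lower late were SLC71A1, the orphan facilitator, and SLC2A4RG, the DNA-binding protein. SLC71A1 averaged 2.29 late and 2.37 at 4 to 12 h (-0.082 ± 0.023; adjusted p = 0.0161). It lost its call without the 4 h array (adjusted p = 0.0798), with the other window limits (adjusted p = 0.202) and without the 48 h arrays (adjusted p = 0.0665). SLC2A4RG averaged 1.00 late and 1.08 at 4 to 12 h, a difference of -0.072 ± 0.025 (adjusted p = 0.0475), and its arrays overlapped, from 0.96 to 1.07 late and from 1.04 to 1.13 in the middle window. Its call ended without any 1 of 10 arrays (both of 0.5 h, 1 h, 2 h, 4 h, 12 h, 18 h, 24 h replicate 3, 48 h replicates 1 and 2), with adjusted p between 0.0508 and 0.203. It also ended in 5 further settings, with adjusted p from 0.0605 (trended and robust variance) to 0.793 (other window limits). Over all 12 genes the median difference was -0.0090, against -0.0011 over all genes.

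A smooth curve over the log2 of time, tested on all 15 arrays, called 6 of the 12 genes, where 33.9% of all genes and 60.6% of those at 1.0 or more were called. These were SLC9D1 (adjusted p = 2.0e-07), SLC49A4 (adjusted p = 3.3e-06), SLC75A1 (adjusted p = 1.2e-05), SLC66A3 (adjusted p = 0.00058), SLC71A1 (adjusted p = 0.00138) and SLC61A1 (adjusted p = 0.0134). The last was lost without 0.5 h replicate 1 (adjusted p = 0.08004) or 0.5 h replicate 3 (adjusted p = 0.0629), and with a spline of 2 degrees of freedom (adjusted p = 0.0653). The call of SLC66A3 was lost without the 48 h arrays (adjusted p = 0.151). The genes not called were SLC2A4RG (adjusted p = 0.106), SLC60A2 (adjusted p = 0.251), SLC35F6 (adjusted p = 0.261), SLC38A12 (adjusted p = 0.307), SLC71A2 (adjusted p = 0.402) and SLC33A2 (adjusted p = 0.459).

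**Figure D3:**
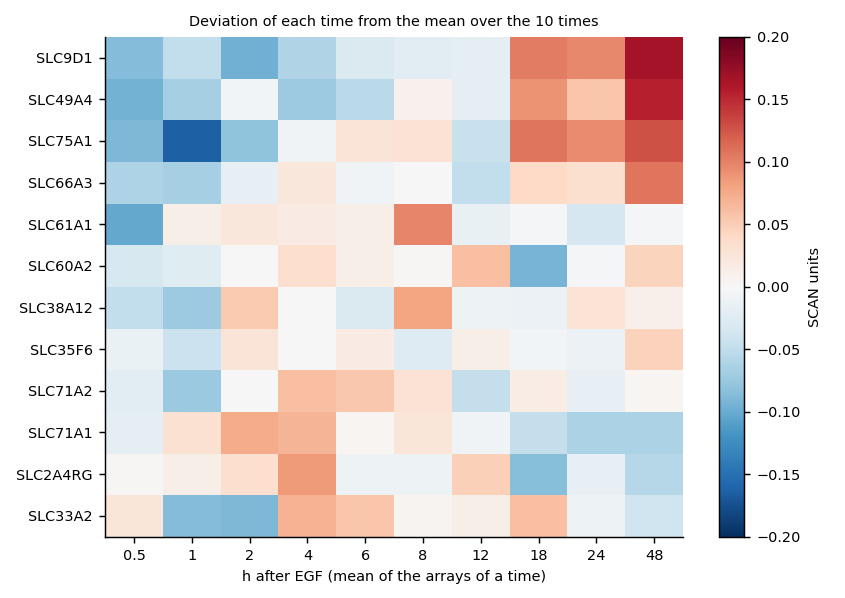
Deviation of each time mean from the mean over the 10 times (colour, SCAN units, blue below and red above) for the 12 genes, with hours after EGF from left to right; times other than 0.5, 24 and 48 h are single arrays. The top 3 rows are red from 18 h on, SLC61A1 is lowest at 0.5 h and highest at 8 h, and SLC71A1 is highest at 2 h and lowest at 48 h.

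The time courses of the 12 genes therefore did not follow a single shape. SLC9D1, SLC49A4, SLC75A1 and SLC66A3 had their highest mean at 48 h and their lowest within the first 2 h. SLC35F6 also had its highest mean at 48 h and its lowest at 1 h, but over a range of 0.090. In the other 7 genes the highest mean fell on a single array, namely SLC71A1 at 2 h, SLC71A2, SLC33A2 and SLC2A4RG at 4 h, SLC61A1 and SLC38A12 at 8 h and SLC60A2 at 12 h, so the maximum has no replicate.

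Grouped by substrate, most groups held a single gene, and the groups were assigned from the names once these had been seen. The ions had 2 members, SLC9D1 and SLC61A1, and both were called higher at 48 h than at 0.5 h. In this comparison 15.5% of all genes were called higher, and 27.8% of those at 1.0 or more. The call of SLC61A1 was lost without 0.5 h replicate 1 or 0.5 h replicate 3. Its highest mean was at 8 h, whereas that of SLC9D1 was at 48 h. Of the 3 orphan carriers SLC66A3 was called higher, while SLC71A1 and SLC71A2 were not called. Of the 2 carriers placed with organic acids, organic ions and lipids, SLC75A1 was called higher and SLC33A2 was not called, with means in opposite directions. The vitamin group held SLC49A4, which was called higher, whereas the sugar, nucleotide sugar and amino acid groups held 1 gene each (SLC60A2, SLC35F6 and SLC38A12) and 0 calls.

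The 25 SLC symbols under 1.0 included relatives of these genes, and 5 of them (20.0%) were called for 48 h against 0.5 h, 4 higher and 1 lower, against 28.6% of all genes. Only 11 of the 25 are protein-coding, and 4 of these were called (36.4%). Of the 14 other transcripts 1 was called (7.14%). SLC60A1, the closest named relative of SLC60A2, scored 0.62 and 0.68 at 0.5 h, stayed between 0.59 and 0.77 up to 12 h, and then read 0.99 at 18 h, 1.07, 1.05 and 1.02 at 24 h and 1.34, 1.29 and 1.27 at 48 h. Its difference of 0.65 ± 0.032 (adjusted p = 2.7e-11) ranked 12th from the highest of all genes. SLC66A2, a PQ-loop relative of SLC66A3, averaged 0.75 at 48 h and 0.56 at 0.5 h, higher by 0.19 ± 0.030 (adjusted p = 6.7e-05).

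SLC66A1, the PQ-loop protein that exports cationic amino acids from lysosomes, was higher by 0.11 ± 0.032 (adjusted p = 0.0107), a call lost without 0.5 h replicate 3 (adjusted p = 0.0824). The mitochondrial ornithine carrier SLC25A15 scored 0.47, 0.45 and 0.47 at 48 h against 0.64 and 0.56 at 0.5 h. It was the 1 gene called lower, by -0.14 ± 0.031 (adjusted p = 0.0024). The last call was SLC2A1-DT, a divergent transcript beside the glucose carrier gene SLC2A1, at 0.34 against 0.22 (0.12 ± 0.030, adjusted p = 0.0054), and no level of SLC2A1 itself is given by it.

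**Figure D4:**
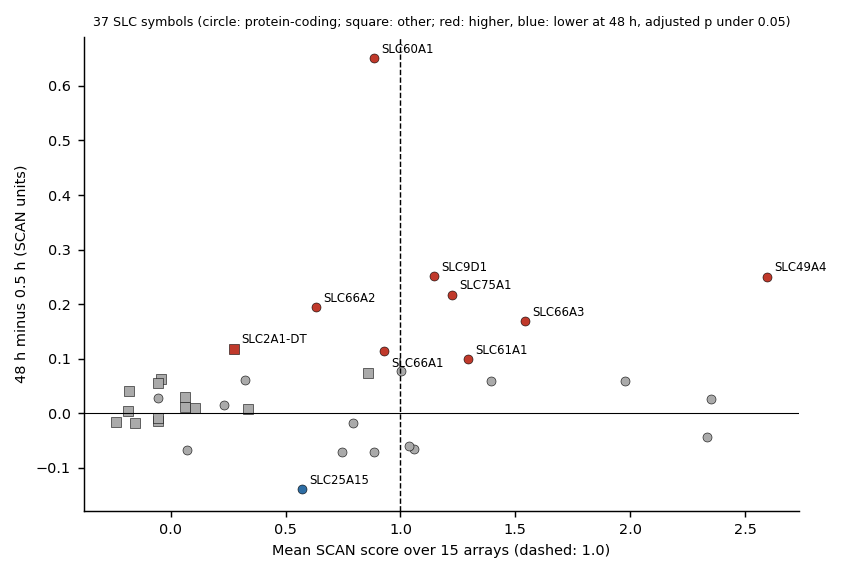
Difference of 48 h minus 0.5 h (vertical axis, SCAN units) against the mean SCAN score over 15 arrays for all 37 SLC symbols; circles are protein-coding genes, squares other transcripts, red and blue mark calls higher and lower at 48 h, and the dashed line is the level of 1.0 that chose the 12 genes. SLC60A1, with a difference of 0.65, lies left of the line, and SLC25A15 is the single blue point.

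For 24 h against 0.5 h, 5 of these 25 symbols (20.0%) were higher and 0 lower. Of all genes 9.96% were called higher and 7.26% lower, which is 17.2% in either direction. The 5 symbols were SLC60A1, SLC66A1, SLC2A1-DT, SLC66A2 and the antisense transcript SLC25A25-AS1. By type this was 27.3% of the 11 protein-coding symbols and 14.3% of the 14 others. For 48 h against 24 h, SLC60A1 and SLC66A2 were higher, and SLC25A25-AS1 and SLC51B were lower, which makes 16.0% of the 25 symbols against 12.9% of all genes. By type it was 27.3% of the 11 protein-coding symbols and 7.14% of the 14 others. SLC51B, known as a subunit of a bile acid exporter of the intestine, had a mean score of 0.072, within the range of the array medians, and averaged 0.014 at 48 h and 0.115 at 24 h. None was called for 4 to 12 h against 0.5 to 2 h by limma, with 1 at an unadjusted p under 0.05.

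Other genes of membrane transport came from lists of partners, regulators and neighbours of the carriers. Of the partners 3 of 8 were measured, and TXNIP, an inhibitor of glucose uptake through SLC2A1, was higher, at 2.71 at 48 h against 1.85 at 0.5 h (adjusted p = 4.7e-13). The chaperones of the lactate carriers, BSG (0.084, adjusted p = 0.113) and EMB (0.090, adjusted p = 0.0585), were not called. Of 13 measured genes of mitochondrial transport with other names, 4 were lower at 48 h than at 0.5 h and 1 higher. These calls make 38.5%, where 28.6% of all genes and 48.9% of those at 1.0 or more were called. MPC1, a subunit of the pyruvate carrier, averaged 1.12 at 48 h against 1.34 at 0.5 h (adjusted p = 0.00027), and the sideroflexin SFXN2 0.40 against 0.77 (adjusted p = 6.2e-08). SFXN1, the mitochondrial serine carrier (-0.098, adjusted p = 0.0447), and the channel VDAC3 (-0.13, adjusted p = 0.0028) were lower as well, whereas SFXN3 was higher (0.26, adjusted p = 5.1e-06).

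Of 7 measured regulators of carrier genes, 3 were higher and 1 lower for 48 h against 0.5 h. That is 57.1%, where 28.6% of all genes and 48.9% of those at 1.0 or more were called. The sterol regulator SREBF2 averaged 1.87 at 48 h against 1.66 at 0.5 h (adjusted p = 2.2e-05), SREBF1 0.98 against 0.88 (adjusted p = 0.0256) and the oxidative stress regulator NFE2L2 1.75 against 1.62 (adjusted p = 0.0195). MYC averaged 1.27 at 48 h against 1.59 at 0.5 h (adjusted p = 4.0e-07). TFEB, which drives lysosomal genes, stood at 0.10 at both times (adjusted p = 0.996). This is near the array medians of 0.0644 to 0.0789, so little can be read from the lack of a difference. None of the 23 ABC transporters of the last list was named in the annotation used here. Among 6 genes still named MFSD, a list drawn up after the files were seen, MFSD6 (0.26) and MFSD8 (0.12) were called higher at 48 h than at 0.5 h and MFSD2A lower (-0.12). The share called was 50.0%, again against 28.6% of all genes and 48.9% of those at 1.0 or more.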

How the data were processed

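Transcripts of H1975 cells were measured on 15 Affymetrix Human Gene 2.0 ST arrays. The authors deposited 1 SCAN score per probe set (39937), from Single Channel Array Normalisation of each array alone, having dropped outlying arrays. No source used here gives the SCAN version. Times and replicate numbers came from the labels, whose protocol does not list the labelled 18 h. The platform annotation gave 1 symbol to 15426 probe sets and left 24511 unnamed. Symbols were updated by gene identifier, and of several probe sets of a symbol (534 symbols) that with the highest mean was kept, leaving 14675 genes with no filter on low values.

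Tests were two-sided and came from limma 3.58.1 (R 4.3.3, lmFit and eBayes). Time entered as a factor of 10 levels, the 3 windows as another, and the time course as a natural spline (3 degrees of freedom, log2 time) with an F test. Benjamini-Hochberg adjustment ran over all genes, with calls at an adjusted p under 0.05. The fits were tested on simulated data. The number of arrays limits the precision.

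The members, lists and rule for named genes (all 12 members and the SLC symbols called under 1.0) were chosen with earlier results of these data known. The family groups written at the start covered few of the members, which were then placed by name.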

Additional observations from a re-analysis of the deposited data

How the results depend on the processing

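Of 540 results of the 12 genes over the alternatives other than leaving out 1 array, 519 kept their side of the threshold, 15 lost a call and 6 gained one. Direction was compared only for results called in the main fits other than the time course, and 0 of these reversed. For 24 h against 0.5 h, 5 SLC genes were called when those with a mean of 0.8 or more were taken, in place of 3. For 48 h against 24 h, 2 were called after quantile normalisation and 2 at a mean of 0.8 or more, in place of 1. For 4 to 12 h against 0.5 to 2 h the single call of SLC75A1 left 0 after quantile normalisation, after centring the arrays on their medians, with a trended and robust variance, and with other window limits (4 h counted as early, 12 h as late). For 18 to 48 h against 4 to 12 h, 5 calls became 1 with those other limits, 3 at a mean of 1.2 or more (fewer genes counted) and 3 without the 48 h arrays, an alternative chosen after seeing the data. Without 1 array, calls ranged from 4 to 6 for 48 h against 0.5 h, from 3 to 4 for 24 h against 0.5 h, from 0 to 1 for 48 h against 24 h, from 0 to 1 for 4 to 12 h against 0.5 to 2 h, from 3 to 6 for 18 to 48 h against 4 to 12 h and from 5 to 6 for the time course. The cause of these changes was not tested, apart from the changed thresholds. Deviations of arrays of 24 h and 48 h with the same replicate number correlated at 0.0103, 0.0281 and 0.0297 across genes, so the numbers were not taken to pair the arrays. Each array correlated best with its own number, which is a hint from the data and not from the design. With the replicate block the calls were 5 for 48 h against 0.5 h, 3 for 24 h against 0.5 h, 1 for 48 h against 24 h, 1 for 4 to 12 h against 0.5 to 2 h, 4 for 18 to 48 h against 4 to 12 h (SLC2A4RG lost, adjusted p = 0.0816) and 6 for the time course. The smallest difference called among the 12 genes was the -0.072 SCAN units of SLC2A4RG, against a median SD between replicates of 0.0253 to 0.0314 over all genes, and 7 of 10 times had no replicate.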
